A study of Mus musculus with 8 samples.

Results

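The respiratory chain and ATP synthase were examined in Treg, the regulatory subset of mouse CD4 T cells, which needs the transcription factor Foxp3 and holds other immune cells in check. Members were the protein-coding genes whose symbols name a subunit of complexes I to V (the Nduf, Sdh, Uqcr, Cyc1, Cox and Atp5 series) or begin with mt-, the prefix of genes carried by mitochondrial DNA. The GENCODE M21 annotation of the mouse build GRCm38 held 99 such genes. The deposited table listed 19826 genes, among them 94 members, 81 in the nuclear genome and 13 in mitochondrial DNA. The other 5 (Cox7b2, Cox8b, Cox8c, Ndufa4l2 and a second locus named Atp5o) were not analysed here. The rule itself goes by gene symbols and takes no measured value.

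Polyadenylated RNA was sequenced from 2 groups of 4 libraries of YFP+ CD4+ cells, taken by flow cytometry from spleen and peripheral lymph nodes of untreated C57BL/6 mice. The Pdpk1 KO group was Foxp3 YFP-Cre/+ Pdpk1 FL/FL and the WT group was Foxp3 YFP-Cre/+ Pdpk1 +/+, so both carried the Foxp3 allele that makes YFP and Cre in Foxp3-expressing cells. Pdpk1 encodes PDK1, a kinase of the PI3K pathway that phosphorylates AKT, and is a different gene from Pdk1, a kinase of the pyruvate dehydrogenase complex. The labels gave no age, and they do not tie libraries to single animals, so the spread that a p-value measures is that among libraries. Values are normalized counts, the authors' gene read counts divided by 1 size factor per library.

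The respiratory chain sits in the inner mitochondrial membrane. Complexes I and II take electrons from NADH and succinate, complex III passes them to cytochrome c, and complex IV hands them to oxygen. Complexes I, III and IV pump protons, and complex V, the ATP synthase, makes ATP as the protons flow back. Complex II is built from nuclear gene products alone, while the others combine nuclear and mitochondrial products. Treg are known to rely on oxidative phosphorylation more than conventional effector T cells do.

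Recovered depth lay between 17448095 and 26299577 reads per library. Pdpk1 had 2505, 1900, 1872 and 1656 normalized counts in the Pdpk1 KO libraries, against 2600, 2374, 1995 and 1923 in the WT libraries. The groups overlapped (log2 change of -0.17, 95% interval -0.45 to 0.11; exact two-sided permutation test p = 0.286, where the smallest possible is 0.0286). The labels do not say which exons lie between the loxP sites, so this whole-gene value does not check the deletion. The summed level of 6 Treg markers (Cd4, Cd3e, Foxp3, Il2ra, Ctla4 and Ikzf2) was between 54351 and 59663 in Pdpk1 KO and between 56729 and 59090 in WT. Within that sum Il2ra was higher in Pdpk1 KO (log2 change of 0.63, limma adjusted p = 0.00114), Ikzf2 was lower (-1.13, limma adjusted p = 4.45e-06), and the other 4 did not pass. Cd3e narrowly missed (-0.39, limma adjusted p = 0.0545), and Cd4 lay lower in Pdpk1 KO without overlap (-0.22, limma adjusted p = 0.145). Both passed by DESeq2 (adjusted p = 0.0172 and 0.0376). Ctla4 and Foxp3 had estimates of -0.27 and 0.08 (limma adjusted p = 0.183 and 0.768). Markers of other cells were also detected, and the 20 macrophage markers, all listed, summed to between 2139 and 6685 in Pdpk1 KO against between 1548 and 3037 in WT. Of their 16 tested genes 7 were higher in Pdpk1 KO, 1 (Axl) was lower, and none was at 0 in all libraries of a group. B cell markers summed to between 156 and 305 in Pdpk1 KO against between 354 and 528 in WT. This came from Cd79b, which was lower in Pdpk1 KO (log2 change of -1.17, limma adjusted p = 0.00407), while Cd79a, the other B cell marker tested, had an estimate of 0.73 (limma adjusted p = 0.258). The sums of CD8 T cell, dendritic cell and erythroid markers overlapped between the groups, at no more than 528 in any library. Cd8b1 held most of the CD8 T cell sum (log2 change of 0.19, limma adjusted p = 0.612). Cd8a, the other marker of that sum, lay between 35.9 and 55.9 in Pdpk1 KO and between 2.25 and 31.3 in WT. It did not overlap and did not pass (log2 change of 1.47, limma adjusted p = 0.195).

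Transcripts of the respiratory chain and ATP synthase showed few differences between Pdpk1 KO and WT Treg. Of the 94 members, 90 had a normalized count of at least 10 in at least 4 of the 8 libraries and were tested (79 nuclear, 11 mitochondrial), with limma on log2(normalized count + 1) and Benjamini-Hochberg adjustment over all 13847 genes tested at a threshold of 0.05. A single member, Cox7a2l, was higher in Pdpk1 KO, and none was lower. That is 1.11% of the tested members, against 9.47% of all genes tested (4.41% higher and 5.06% lower). At an unadjusted p under 0.05 there were 3 members (Cox7a2l, Ndufa5 and Atp5b), against 23% of all genes. On the recovered reads edgeR and DESeq2 each called Cox7a2l higher and Ndufa5 lower. edgeR called 9.06% of all genes (4.33% higher, 4.73% lower) and DESeq2 called 12.9% (6.25% higher, 6.69% lower). These are differences in RNA per library, and in sorted bulk samples fewer cells of a type and less RNA per cell cannot be told apart.

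**Figure D1:**
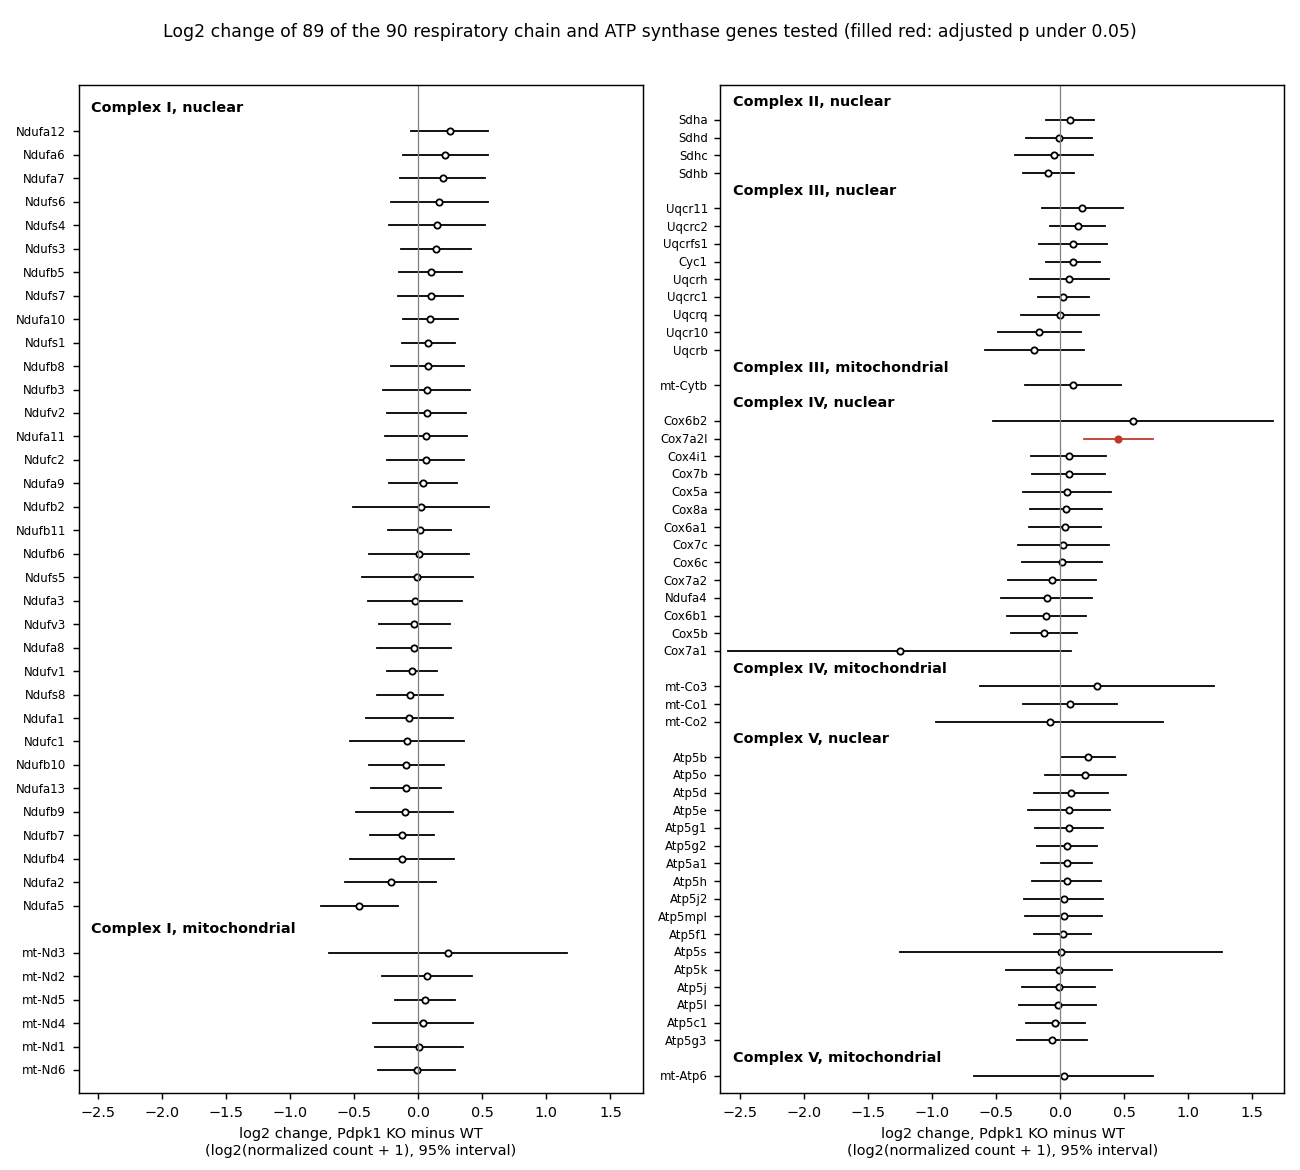
Log2 change of 89 of the 90 tested members, given as Pdpk1 KO minus WT on the log2(normalized count + 1) scale, with its 95% interval (lines) and grouped by complex and genome of origin. Most points lie near 0, and Cox7a2l (filled red, 0.45) was the 1 member with an adjusted p under 0.05.

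The changes of the members were small and closely grouped around 0. The median log2 change was 0.03 over the members and -0.01 over all genes tested. Of the 90 tested members 57 had a positive and 33 a negative change, while 6796 of all 13847 genes tested had a positive one. Many members were low in the same libraries, as given below, so these signs are not 90 separate observations. The 95% interval of the log2 change lay within 0.5 on either side of 0 for 70 of the 90 members, against 37.2% of all genes tested. It lay within 1 on either side of 0 for 85 of the 90, against 64.6% of all genes. The 5 with wider intervals were mt-Nd3, mt-Co3, Cox6b2, Cox7a1 and Atp5s, all with few reads. All genes tested also include genes with few reads, and no set matched to the members by level was compared. The median standard deviation within groups was 0.24 for the members and 0.26 for all genes on the log2 scale, so the members' libraries were about as far apart as those of other genes. The 4 libraries of Pdpk1 KO and the 4 of WT did not overlap for 2 of the 90 tested members, against 15.3% of all genes (7.06% with Pdpk1 KO above WT and 8.24% below). Both members, Ndufa5 and Cox7a1, were below WT and neither passed the threshold.

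**Figure D2:**
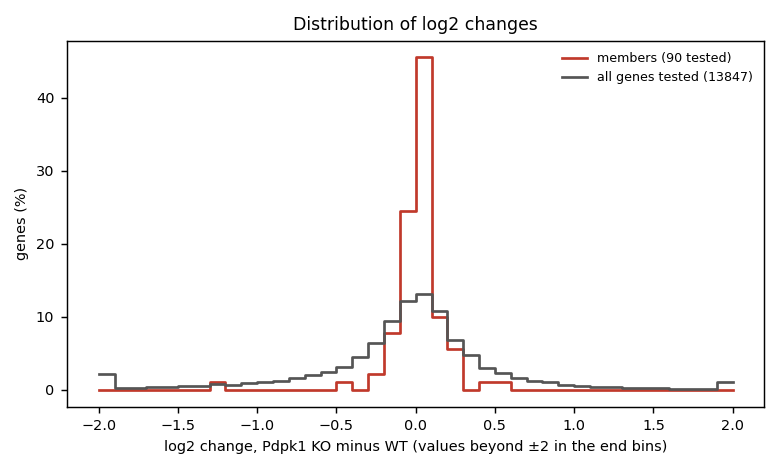
Share of genes (vertical axis, percent) in each bin of log2 change between Pdpk1 KO and WT (horizontal axis, log2(normalized count + 1) scale), for the 90 tested members in red and all 13847 genes tested in grey. The members form a narrow peak around their median of 0.03, and the spread of all genes, which were not matched to the members by level, is wider.

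Summed levels did not separate the groups for either genome of origin. The 79 tested nuclear members had a median log2 change of 0.03, and the 11 tested mitochondrial members had a median of 0.05, with none past the threshold. The summed level of the 81 nuclear members was 154764, 200908, 185424 and 194008 normalized counts in the Pdpk1 KO libraries, against 148880, 174218, 201422 and 177840 in the WT libraries. These sums overlapped, and their means were 183776 ± 20352 in Pdpk1 KO and 175590 ± 21507 in WT (SD, n = 4 each). The 13 mitochondrial genes summed to 363878, 530886, 437564 and 446496 in Pdpk1 KO, against 354821, 411178, 483511 and 442833 in WT, and these sums overlapped as well. The mitochondrial sum divided by the nuclear sum was 2.41 ± 0.155 in Pdpk1 KO and 2.41 ± 0.0568 in WT (SD, n = 4 each), so this ratio differed by less than the spread between libraries. The mitochondrial sum rests almost wholly on 7 of the 13 genes. mt-Co1 alone made up 45.6% of it and the 6 lowest genes together 0.0497%. Several of the 13 share sequence with nuclear copies, as given below, so the ratio does not measure all mitochondrial transcripts. Nuclear members took up 0.819% ± 0.0642 of all normalized counts in Pdpk1 KO and 0.843% ± 0.0682 in WT. The shares of the mitochondrial genes were 1.98% ± 0.230 in Pdpk1 KO and 2.03% ± 0.188 in WT.

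The library numbered 1 was the lowest of each group in the nuclear and the mitochondrial sums. The Pdpk1 KO library numbered 1 held 80.0% of the mean nuclear sum of the other Pdpk1 KO libraries and 77.2% of their mitochondrial sum. The WT library numbered 1 held 80.7% and 79.6% of the other WT libraries' sums. The library numbered 1 was the lowest of Pdpk1 KO in 77 of the 90 tested members (85.6%, against 26.2% of all genes tested) and the lowest of WT in 79 of the 90 (87.8%, against 29.1% of all genes). The share of counts taken by 82 ribosomal protein genes was also lowest in these libraries, at 12.5% in Pdpk1 KO 1 against 16.0% to 16.9% in the other Pdpk1 KO libraries, and 9.63% in WT 1 against 12.1% to 13.7% in the other WT libraries. Whether RNA quality or library preparation took part in this was not tested. Without both libraries numbered 1, Cox7a2l (log2 change of 0.47, adjusted p = 0.00570 by limma) and Ndufa5 (-0.52, adjusted p = 0.0309) passed the threshold, an alternative chosen after the data had been seen.

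**Figure D3:**
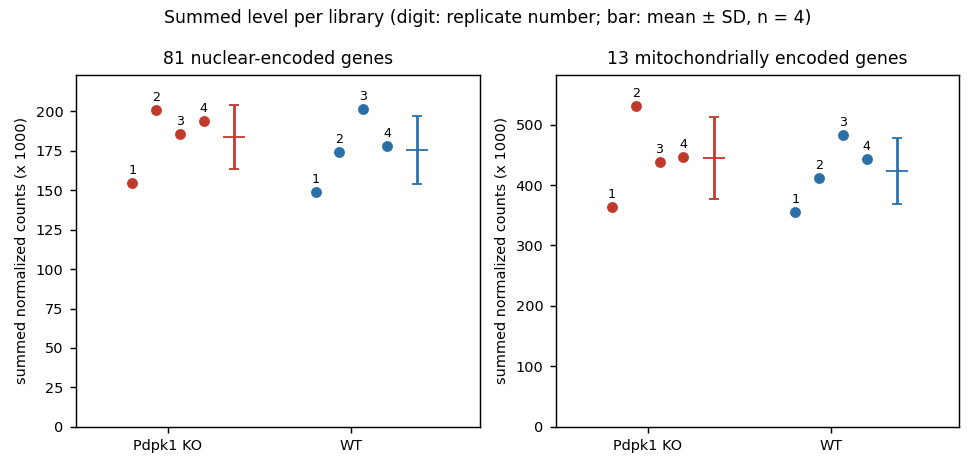
Summed normalized counts (vertical axis, in units of 1000) of the 81 nuclear members and the 13 mitochondrial genes in each library, where digits give the replicate number and bars the mean ± SD (n = 4 per group). The Pdpk1 KO and WT libraries overlap in both panels, and the library numbered 1 is the lowest of each group.

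Complex IV held the 1 member past the threshold. Cox7a2l, also called SCAFI, is a relative of the complex IV subunit COX7A2. Its product is known for a part in joining complexes III and IV into supercomplexes. Whether it does so in the mouse strain used here was not tested, and RNA levels do not show it. Cox7a2l (ENSMUSG00000024248, chr17:83501918-83517330, minus strand) had 8307, 11226, 11404 and 10994 normalized counts in Pdpk1 KO, against 6239, 7953, 9025 and 7432 in WT. All Pdpk1 KO libraries except the one numbered 1 lay above every WT library, and that library lay below WT 3, so the groups overlapped. The log2 change was 0.45 (SE 0.127, 95% interval 0.18 to 0.72, limma adjusted p = 0.0349). Per kilobase of exon Cox7a2l averaged 7093 normalized counts in Pdpk1 KO and 5184 in WT, the highest of the 81 nuclear members in Pdpk1 KO and below Cox6a1 in WT. Of its 50-base stretches, 13.8% also occur in Gm6969, a processed pseudogene that averaged 16.4 normalized counts.

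Cox7a2, the COX7A form made in most tissues, was not past the threshold. It had 807, 1225, 1243 and 1328 normalized counts in Pdpk1 KO, against 965, 1069, 1441 and 1313 in WT (log2 change of -0.06, 95% interval -0.41 to 0.28, limma adjusted p = 0.864). The ratio of Cox7a2l to Cox7a2 counts was 10.3, 9.16, 9.18 and 8.28 in Pdpk1 KO, against 6.46, 7.44, 6.26 and 5.66 in WT, and here the groups did not overlap. Relative to 1000 counts of all nuclear members, Cox7a2l lay between 53.7 and 61.5 in Pdpk1 KO and between 41.8 and 45.6 in WT, again without overlap. Both ratios were computed after the level of Cox7a2l was known and carry no test. Among the Pdpk1 KO libraries the one numbered 1 was highest in the first ratio and lowest in the second.

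The call of Cox7a2l depended on the libraries and the scaling. It was lost when WT 1, WT 2, WT 4 or Pdpk1 KO 2, 3 or 4 was left out (log2 changes of 0.36, 0.48, 0.44, 0.42, 0.41 and 0.43; limma adjusted p = 0.0880, 0.0633, 0.0893, 0.0915, 0.113 and 0.0793). The mean log2 level of the macrophage markers was 5.34, 7.33, 6.57 and 5.38 in the Pdpk1 KO libraries, against 2.78, 5.85, 3.78 and 4.28 in the WT libraries. With that mean as a covariate the log2 change of Cox7a2l was 0.25 (adjusted p = 0.523), and leaving out the 3 libraries with most of it (Pdpk1 KO 2 and 3, WT 2) it was 0.35 (adjusted p = 0.414). The mean was itself mostly higher in Pdpk1 KO, and the reduced set holds Pdpk1 KO 1 and 4 against WT 1, 3 and 4. Over all genes the covariate left 205 higher and 274 lower and the reduced set 161 and 276, against 611 and 700 as reported. For a call lost under either setting, lost power and a macrophage part cannot be told apart. Scaled to all recovered reads the log2 change of Cox7a2l was 0.34 (adjusted p = 0.0550), where the median of all genes shifted by -0.11 against the authors' scaling.

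**Figure D4:**
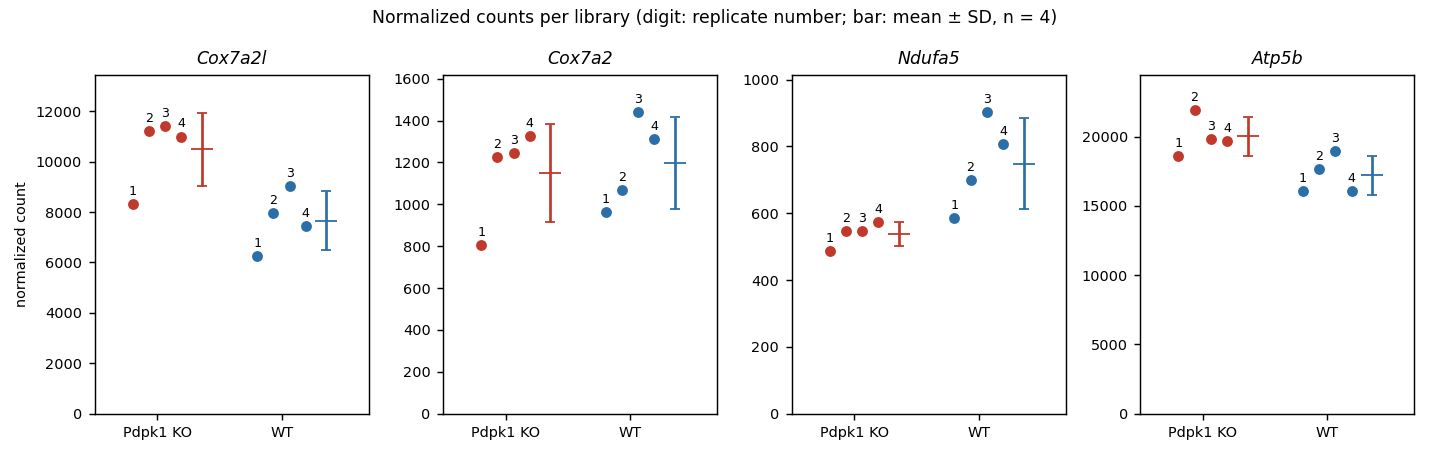
Normalized counts (vertical axis, linear from 0) of Cox7a2l, Cox7a2, Ndufa5 and Atp5b in each Pdpk1 KO and WT library, where digits give the replicate number and bars the mean ± SD (n = 4 per group). Cox7a2l and Atp5b averaged higher in Pdpk1 KO, Ndufa5 lay lower there without overlap, and the groups overlapped for Cox7a2.

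The other members of complex IV did not pass the threshold in either direction. Cox7a1, the form of COX7A known from heart and skeletal muscle, had 7.45, 15.3, 13.5 and 3.41 normalized counts in Pdpk1 KO, against 21.4, 26.1, 22.1 and 19.3 in WT. Every WT library lay above every Pdpk1 KO library, at 128 reads over all 8 libraries (log2 change of -1.25, 95% interval -2.59 to 0.08, limma adjusted p = 0.253). Cox6b2, the testis form of COX6B, had 31.7, 48.2, 37.0 and 17.1 normalized counts in Pdpk1 KO, against 19.2, 11.5, 31.3 and 27.2 in WT. The groups overlapped (log2 change of 0.57, 95% interval -0.53 to 1.66, limma adjusted p = 0.565). These were the largest positive and negative estimates of the complex and both came from genes with low counts. The median log2 change of its 17 tested members was 0.04.

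Tissue forms of complex IV subunits stood far below their widely expressed partners in both groups. Per kilobase of exon, Cox4i1 made up 99.8% ± 0.155 of Cox4i1 and Cox4i2 together in Pdpk1 KO and 99.8% ± 0.134 in WT (SD, n = 4 each). Cox6a1 made up 99.9% ± 0.0890 of the Cox6a pair in Pdpk1 KO and 99.9% ± 0.0788 in WT. Cox6b1 made up 99.1% ± 0.386 of the Cox6b pair in Pdpk1 KO and 99.4% ± 0.174 in WT. Cox4i2, a form of COX4 linked to the response to low oxygen, was at 0 in Pdpk1 KO 1 and in WT 1 and reached 12.8 normalized counts in Pdpk1 KO and 10.4 in WT elsewhere. Where a library is at 0, counting error alone would permit as many as 3 reads there, or 2.56 to 3.38 normalized counts by library. Cox6a2, a form of heart and muscle, reached 5.59 in Pdpk1 KO and 5.52 in WT and was at 0 in 2 libraries of each group. Neither passed the filter on low values.

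Within the Cox7a family the make-up per kilobase of exon differed between the groups. Cox7a2l made up 86.6%, 85.1%, 85.2% and 84.0% of the 3 genes' level in the Pdpk1 KO libraries, against 79.9%, 82.0%, 79.6% and 77.9% in the WT libraries. Cox7a2 made up 14.5% ± 1.11 in Pdpk1 KO and 19.5% ± 1.77 in WT, and Cox7a1 0.222% ± 0.109 in Pdpk1 KO and 0.649% ± 0.117 in WT (SD, n = 4 each). The groups did not overlap for any of these shares, which follow from the levels given above and were not tested. Cox8a, the widely expressed form of COX8, averaged 4562 normalized counts per kilobase in Pdpk1 KO and 4451 in WT, with a log2 change of 0.05 (limma adjusted p = 0.884). Ndufa4, first counted with complex I and now known as a subunit of complex IV, had a log2 change of -0.10 (95% interval -0.46 to 0.25, limma adjusted p = 0.772).

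Complex I, the NADH dehydrogenase, had the most members, 35 nuclear and 7 mitochondrial, and none of the 41 tested passed the threshold. The 28 nuclear accessory subunits, which surround and stabilise the catalytic core, had a median log2 change of 0.01. The largest positive estimate was that of the accessory subunit Ndufa12. It had 847, 1286, 941 and 1021 normalized counts in Pdpk1 KO, against 714, 915, 984 and 825 in WT, with overlapping groups (log2 change of 0.25, 95% interval -0.06 to 0.55, limma adjusted p = 0.333).

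Ndufa5, an accessory subunit of the arm of complex I that reaches into the matrix, had the largest negative estimate of complex I. Ndufa5 (ENSMUSG00000023089, chr6:24518666-24528013, minus strand) had 488, 547, 546 and 573 normalized counts in Pdpk1 KO, against 585, 700, 902 and 807 in WT. All Pdpk1 KO libraries lay below all WT libraries, with WT 1 nearest to them. The log2 change was -0.46 (SE 0.141, 95% interval -0.76 to -0.16) and narrowly missed the threshold (limma adjusted p = 0.0546). The same difference passed by edgeR (adjusted p = 0.0468) and by DESeq2 (adjusted p = 0.0221). Relative to 1000 counts of all nuclear members, Ndufa5 lay between 2.72 and 3.15 in Pdpk1 KO and between 3.93 and 4.54 in WT. With the macrophage covariate its log2 change was -0.54 (limma adjusted p = 0.193), and it was -0.51 (adjusted p = 0.270) once Pdpk1 KO 2, Pdpk1 KO 3 and WT 2 were left out. None of its 50-base stretches occurs in another annotated gene.

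Complex II, succinate dehydrogenase, also a step of the TCA cycle, had the smallest range of estimates among the 5 complexes. It also had the fewest tested members, 4, and a range tends to widen with the number of genes. Its flavoprotein Sdha had 6335, 6614, 6918 and 6061 normalized counts in Pdpk1 KO, against 5787, 6255, 6744 and 5839 in WT (log2 change of 0.08, limma adjusted p = 0.676). The iron-sulphur subunit Sdhb had 1783, 2103, 2179 and 2128 in Pdpk1 KO, against 2093, 2222, 2277 and 2128 in WT (log2 change of -0.09, limma adjusted p = 0.612). Sdha and Sdhb had the largest estimates in either direction, and the groups overlapped for all 4 genes. All 4 intervals lay within 0.5 on either side of 0. Sdhc and Sdhd, the membrane anchors, had log2 changes of -0.05 and -0.01.

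Complex III, the cytochrome bc1 complex, had 10 members, all tested and none past the threshold. Its largest estimates were those of the small subunits Uqcr11 and Uqcrb. Uqcr11 had 698, 1190, 1067 and 1071 normalized counts in Pdpk1 KO, against 835, 824, 904 and 940 in WT (log2 change of 0.17, limma adjusted p = 0.536). Uqcrb had 670, 1074, 723 and 864 in Pdpk1 KO, against 682, 987, 1281 and 911 in WT (log2 change of -0.20, limma adjusted p = 0.564). Both pairs of groups overlapped. For Uqcr11 the Pdpk1 KO library numbered 1 was the lowest of all. For Uqcrb the WT library numbered 1 lay below every Pdpk1 KO library except the one numbered 1. Among the catalytic subunits, cytochrome c1 (Cyc1), the Rieske iron-sulphur protein (Uqcrfs1) and mitochondrial cytochrome b (mt-Cytb) each had an estimated log2 change of 0.10 (limma adjusted p = 0.611, 0.690 and 0.792).

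Complex V had 17 nuclear members tested and none past the threshold. Atp5b, the catalytic beta subunit of the ATP synthase, had the largest positive estimate. Atp5b (ENSMUSG00000025393, chr10:128083273-128090391, plus strand) had 18602, 21944, 19831 and 19673 normalized counts in Pdpk1 KO, against 16065, 17672, 18969 and 16094 in WT. A single WT library, WT 3, lay above Pdpk1 KO 1, and the other WT libraries lay below all of Pdpk1 KO. The log2 change was 0.22 (SE 0.0997, 95% interval 0.01 to 0.43) and did not pass (limma adjusted p = 0.202). The estimate was 0.05 after quantile normalization, 0.12 with the macrophage covariate and 0.11 scaled to all reads (limma adjusted p = 0.728, 0.754 and 0.437). Atp5a1, the alpha subunit that alternates with beta in the catalytic head, had a log2 change of 0.05 (limma adjusted p = 0.798). Atp5s, a coupling factor rather than a core subunit, was read at low counts, between 20.8 and 96.4 in Pdpk1 KO and between 14.7 and 122 in WT.

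The 3 genes Atp5g1, Atp5g2 and Atp5g3 encode the same mature subunit c, the rotor ring protein, with different import sequences. Per kilobase of exon, Atp5g1 made up 7.93% ± 0.346 of their level in Pdpk1 KO and 7.57% ± 0.423 in WT (SD, n = 4 each). Atp5g2 made up 47.6% ± 1.68 in Pdpk1 KO and 45.9% ± 1.82 in WT, and Atp5g3 made up 44.5% ± 1.87 in Pdpk1 KO and 46.5% ± 1.60 in WT. These shares overlapped between the groups. Atp5g3 had the largest negative estimate of complex V, a log2 change of -0.06 (limma adjusted p = 0.828). Of the 50-base stretches of Atp5g2, 38.3% also occur in other annotated genes, and for the listed Atp5o, the subunit that links the catalytic head to the stalk, the share was 41.6%. The values of both are uncertain in that respect.

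By level per kilobase of exon, subunits of complex IV and complex V were read more than those of complex I. The median over tested nuclear members was 709 normalized counts per kilobase in Pdpk1 KO and 725 in WT for complex I. It was 1600 in Pdpk1 KO and 1645 in WT for complex IV, and 1494 in Pdpk1 KO and 1498 in WT for complex V. Complex II stood at 1013 in Pdpk1 KO and 1045 in WT, and complex III at 1260 in Pdpk1 KO and 1150 in WT. Beside Cox7a2l, the highest levels per kilobase over the 8 libraries were those of Cox6a1 (5387 in Pdpk1 KO, 5272 in WT), Cox8a (4562 in Pdpk1 KO, 4451 in WT), Atp5b (4723 in Pdpk1 KO, 4060 in WT), Cox4i1 (4195 in Pdpk1 KO, 4021 in WT) and Atp5a1 (4032 in Pdpk1 KO, 3890 in WT), and their order differed between the groups. Exon length is that of the merged annotated exons, so genes with long annotated ends that the cells do not use are understated.

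The 13 mitochondrial genes fell into separate sets by level, whichever the genotype. Over the 8 libraries 7 of them (mt-Nd1, mt-Nd2, mt-Nd4, mt-Nd5, mt-Nd6, mt-Cytb and mt-Co1) averaged between 13866 and 197682 normalized counts. The other 6 (mt-Nd3, mt-Nd4l, mt-Co2, mt-Co3, mt-Atp6 and mt-Atp8) averaged between 4.15 and 60.5 and together made up 0.0497% of the mitochondrial total. mt-Co1, the catalytic subunit of complex IV, made up 45.6% of that total. mt-Co2 and mt-Co3, the other mitochondrial subunits of the same enzyme, averaged 53.8 and 46.3 normalized counts beside 197682 for mt-Co1.

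For 5 of the 6 low genes nearly the whole transcript also occurs in annotated nuclear genes. The share of 50-base stretches found in another annotated gene was 98.0% for mt-Nd3, 98.8% for mt-Nd4l, 100% for mt-Co2, 99.9% for mt-Co3 and 99.5% for mt-Atp6. Among the 7 high genes it was 62.2% for mt-Nd4 and 51.1% for mt-Co1, and between 0% and 8.19% for the others. The copies of mt-Nd3, mt-Nd4, mt-Nd4l, mt-Co2, mt-Co3 and mt-Atp6 are pseudogenes that lie side by side on the minus strand of chromosome 1, from chr1:24611535 to chr1:24615565. They matched the mitochondrial gene at every aligned base except for Gm28438, which differs from mt-Nd3 by T3C, counted from the gene's 5′ end. mt-Atp8 had no annotated copy, overlaps mt-Atp6 and was read at 34 reads in all. Only annotated transcripts were searched. mt-Atp8 follows mt-Co2, and whether the sequence between the copies of mt-Co2 and mt-Atp6 on chromosome 1 also holds mt-Atp8 was not examined. How reads that match more than 1 place were counted is not given in the sources used here, and its part in the low values was not tested.

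The first 90 bases of mt-Co3 (chrM:8607-8696, plus strand) and of its copy Gm28437 (chr1:24613882-24613971, minus strand), and of mt-Nd3 (chrM:9459-9548, plus strand) and its copy Gm28438 (chr1:24613030-24613119, minus strand), are shown from GRCm38 since they show how alike gene and copy are. The capital marks the 1 base at which mt-Nd3 and its copy differ.
mt-Co3: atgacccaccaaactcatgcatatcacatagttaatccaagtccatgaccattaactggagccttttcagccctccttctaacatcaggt
Gm28437: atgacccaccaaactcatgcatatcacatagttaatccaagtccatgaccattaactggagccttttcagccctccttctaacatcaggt
mt-Nd3: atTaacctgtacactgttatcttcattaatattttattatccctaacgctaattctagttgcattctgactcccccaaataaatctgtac
Gm28438: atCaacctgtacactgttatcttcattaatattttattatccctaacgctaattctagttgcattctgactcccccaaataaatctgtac

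**Figure D5:**
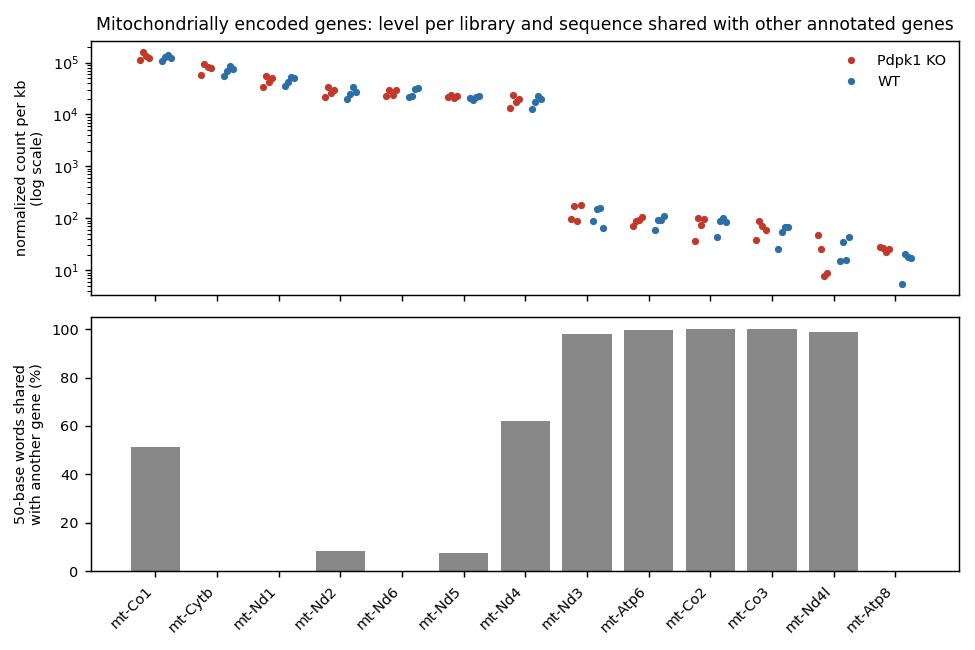
Upper panel: normalized counts per kilobase of exon (log scale) of the 13 mitochondrial genes in each Pdpk1 KO (red) and WT (blue) library, ordered by level. Lower panel: percent of each gene's 50-base stretches that occur in another annotated gene, which is 98.0% or more for 5 of the 6 low genes and 0% for mt-Atp8.

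The copies were themselves read at low levels. Gm28437, the copy of mt-Co3, averaged 44.8 normalized counts beside 46.3 for mt-Co3. Gm28661, the copy of mt-Co2, averaged 68.9 beside 53.8 for mt-Co2, and Gm10925, the copy of mt-Atp6, averaged 87.5 beside 60.5 for mt-Atp6. Gene and copy thus lay within the same order of magnitude in these pairs, whereas mt-Nd4 averaged 25310 beside 23.9 for its shorter copy Gm28439.

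None of the 11 tested mitochondrial genes passed the threshold. Of the complex I genes, mt-Nd1 had 32594, 51854, 40756 and 49070 normalized counts in Pdpk1 KO, against 34028, 40318, 49978 and 48544 in WT (log2 change of 0.01, limma adjusted p = 0.989). The other high genes of complex I, mt-Nd2, mt-Nd4, mt-Nd5 and mt-Nd6, had log2 changes of 0.07, 0.04, 0.05 and -0.01. mt-Co1 had 174487, 244166, 203051 and 192204 in Pdpk1 KO, against 167384, 193940, 213968 and 192256 in WT (log2 change of 0.08, limma adjusted p = 0.841). In each of these genes the groups overlapped. After quantile normalization mt-Nd1 was lower in Pdpk1 KO (log2 change of -0.38, limma adjusted p = 0.00704), the 1 mitochondrial gene that passed under any alternative.

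Among the low mitochondrial genes, mt-Nd3, mt-Co2, mt-Co3 and mt-Atp6 had log2 changes of 0.24, -0.08, 0.29 and 0.03, with limma adjusted p between 0.754 and 0.975. mt-Atp8 lay between 4.49 and 5.59 normalized counts in Pdpk1 KO and between 1.13 and 4.17 in WT, without overlap, and was too low to be tested. mt-Nd4l lay between 2.25 and 14.0 in Pdpk1 KO and between 4.51 and 13.2 in WT and was not tested either. mt-Nd6 lies on the opposite strand from the other mitochondrial members and its end overlaps that of mt-Nd5. Without a stated strand setting, reads of the 2 strands cannot be told apart, in that overlap or elsewhere in mt-Nd6. The level and log2 change of mt-Nd6 are uncertain in that respect.

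Promoters were read for the nuclear members since many genes of the respiratory chain are known targets of nuclear respiratory factor 1 (NRF1) and of ETS factors. RefSeq promoter windows (GRCm38.p6, the 250 bases before the start) matched 66 of the 81 nuclear members and gave 71 windows. The NRF1-type motif (GCGCA and GCGC with any 1 base between them), searched like the others on both strands, occurred in 19.7% of the members' windows, in 8.12% of those of all genes tested and in 3.74% of all windows. The ETS-type motif CCGGAAG occurred in 16.9% of the members' windows, in 13.9% of those of genes tested and in 6.91% of all windows. The E-box CACGTG occurred in 9.86% of the members' windows and in 8.32% of those of genes tested, and the YY1-type motif AAGATGGC in 1.41% and 2.04%. The tested members with the NRF1-type motif had a median log2 change of -0.01 and those without it 0.03, beside -0.01 for all genes. The YY1-type motif can begin with the last letters of the ETS-type motif, so these may overlap. A match describes the letters and not a bound site.

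The promoters of the 3 members with an unadjusted p under 0.05 are shown, each as 100 bases before the RefSeq start. They are Cox7a2l (chr17:83514334-83514433, minus strand, the last 100 bases before the start), Ndufa5 (chr6:24527657-24527756, minus strand, a stretch around the match) and Atp5b (chr10:128083207-128083306, plus strand, the last 100 bases). Capitals mark the NRF1-type match, which begins 190 bases before the start of Ndufa5. The windows of Cox7a2l and Atp5b held none of the 4 motifs.
Cox7a2l: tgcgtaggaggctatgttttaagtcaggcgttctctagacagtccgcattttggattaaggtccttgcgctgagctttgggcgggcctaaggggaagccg
Ndufa5: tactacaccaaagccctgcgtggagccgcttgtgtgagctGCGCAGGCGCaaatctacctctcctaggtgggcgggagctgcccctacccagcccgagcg
Atp5b: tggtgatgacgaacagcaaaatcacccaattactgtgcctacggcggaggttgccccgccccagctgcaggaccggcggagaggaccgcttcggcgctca

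Genes that build or serve the chain were set beside its subunits. Of 45 tested assembly factors none was higher in Pdpk1 KO and 2, Tmem126a and Nubpl, were lower, a count near the 5.06% of all genes called lower. The median log2 change of the list was -0.02. Tmem126a, a complex I assembly factor, had 232, 233, 285 and 264 normalized counts in Pdpk1 KO, against 388, 370, 391 and 387 in WT, without overlap (log2 change of -0.60, limma adjusted p = 0.0186). Nubpl, known in human cells to deliver iron-sulphur clusters to complex I, had 71.7, 63.6, 79.7 and 92.2 in Pdpk1 KO, against 109, 154, 172 and 145 in WT, without overlap (log2 change of -0.90, limma adjusted p = 0.0381). Tmem126a lost the call without WT 4 (adjusted p = 0.0548), and Nubpl lost it when any library other than WT 1 or Pdpk1 KO 4 was left out (highest adjusted p = 0.112). The macrophage covariate gave -0.57 for Tmem126a and -0.96 for Nubpl (limma adjusted p = 0.206 and 0.224). Leaving out the same 3 libraries gave -0.65 and -0.77 (limma adjusted p = 0.142 and 0.330).

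Of 27 tested genes of mitochondrial transcription and biogenesis 1 was higher and 1 lower, near the shares of all genes (4.41% higher and 5.06% lower), at a median log2 change of 0.13. Tefm, the elongation factor of the mitochondrial RNA polymerase, was higher, with 263, 208, 283 and 221 normalized counts in Pdpk1 KO, against 168, 107, 131 and 124 in WT (log2 change of 0.88, limma adjusted p = 0.0146). Esrra, the nuclear receptor ERRalpha that acts on respiratory chain genes, was lower, with 778, 794, 672 and 783 in Pdpk1 KO, against 861, 1004, 1054 and 1109 in WT (log2 change of -0.41, limma adjusted p = 0.0368). Neither pair of groups overlapped. Tefm lost the call without Pdpk1 KO 3 (adjusted p = 0.0546), passed with the macrophage covariate (1.17, adjusted p = 0.0364) and did not pass without the 3 libraries (0.79, adjusted p = 0.206). Esrra lost the call when any library other than WT 1 or Pdpk1 KO 1 was left out (highest adjusted p = 0.120), and stood at -0.47 and -0.36 under the macrophage settings (adjusted p = 0.164 and 0.330).

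Of 16 tested TCA cycle genes Suclg2 alone passed, a single call that is not read as a result of the list beside 4.41% of all genes called higher. The list's median log2 change was 0.05. Suclg2, a subunit of succinyl-CoA ligase, had 1582, 1491, 1382 and 1399 normalized counts in Pdpk1 KO, against 922, 1078, 1125 and 1081 in WT, without overlap (log2 change of 0.48, limma adjusted p = 0.00730). The call held with each library left out in turn (highest adjusted p = 0.0216). The call did not hold with the macrophage covariate (0.42, adjusted p = 0.162) or without the 3 libraries (0.52, adjusted p = 0.103), though the estimate stayed near that reported. Both settings call fewer genes over all, as given above for Cox7a2l. Of 11 tested carriers and partners outside the subunit names none passed, at a median of -0.04. Their highest levels were those of the uncoupling protein gene Ucp2 and of the phosphate carrier Slc25a3. Ucp2 had 16309, 21694, 19437 and 19381 normalized counts in Pdpk1 KO, against 21027, 24655, 29732 and 24428 in WT (log2 change of -0.37, limma adjusted p = 0.0716). Ucp2 passed by DESeq2 (adjusted p = 0.0157) and after quantile normalization (-0.59, limma adjusted p = 6.34e-05). It also passed scaled to all reads (-0.48, limma adjusted p = 0.00573) and without both libraries numbered 1 (limma adjusted p = 0.0351). In 14 of the 22 alternatives to the reported fit none of these carriers and partners was called, Ucp2 included. Slc25a3 had 9874, 10786, 10456 and 10442 in Pdpk1 KO, against 8191, 9306, 8735 and 8914 in WT, without overlap (log2 change of 0.24, limma adjusted p = 0.0938).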

How the data were processed

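Each value of the deposited table is a signal, a gene's read count over its library's size factor (DESeq2 1.21). Per the submitters' processing notes the tools also included STAR 2.7.6a with GRCm38, Trimmomatic 0.39, Subread 2.0.1 (featureCounts) and SAMtools 1.11; strand setting and annotation release are not given in the sources used here. Whole reads were recovered for 100% of values (tolerance 0.001). Genes were tested with limma 3.58.1 (R 4.3.3; lmFit, eBayes with trend, two-sided, no replicate term) on log2(normalized count + 1), which understates changes of low genes. edgeR 4.0.16 and DESeq2 1.42.0 were run on the recovered reads. The steps were tested on simulated data. Shared sequence was counted as 50-base stretches of GENCODE M21 transcripts. The rule for members goes by symbol, but it, the lists and the markers were chosen with earlier results of these data known. Named were the called members, the largest estimates of each complex, tissue isoforms, all mitochondrial genes, and per list the called genes or the 2 highest; other genes were chosen after their values were seen. The value of 1 tested member is not reported here, and the counts, sums and medians include it.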

Additional observations from a re-analysis of the deposited data

Results flagged for a closer look

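In the Pdpk1 KO group Cox7a2l had 1 library far from the others. The library numbered 1 held 8307 normalized counts, while the other Pdpk1 KO libraries lay between 10994 and 11404, so its gap to the nearest was 0.868 of the group's range, above Dixon's 95% critical value for 4 samples. It was the 1 such case among 90 sets of 4 libraries examined (the named members and the summed levels, each in Pdpk1 KO and in WT), and chance alone gives about 1 in 20. The same library was the lowest of its group in 77 of the 90 tested members. Without it the log2 change of Cox7a2l was 0.56 (limma adjusted p = 0.00613).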

How the results depend on the processing

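The median log2 change of the nuclear members stayed between -0.14 and 0.13, and that of the mitochondrial members between -0.16 and 0.19, over all 22 alternatives, so no direction is claimed for either. Members called higher in Pdpk1 KO were 1 in the reported fit. They were 0 with either scaling to recovered reads (all reads, or reads without the mitochondrial genes), with the macrophage marker mean as a covariate and with Pdpk1 KO 2, Pdpk1 KO 3 and WT 2 (highest in these markers) left out, and between 0 and 1 when 1 library was left out. Members called lower were 0 in the reported fit and between 0 and 1 when 1 library was left out. They were 1 with a minimum count of 50, quantile normalization, either scaling to recovered reads, edgeR, DESeq2, centring within 20 length bins, and without both libraries numbered 1. That gene was mt-Nd1 with quantile normalization (log2 change of -0.38, against 0.01 reported) and Ndufa5 in the others (-0.57 to -0.46). With the replicate number as a block, 2 members were higher (Cox7a2l and Atp5b, adjusted p = 0.000101 and 0.0247) and 1 lower (Ndufa5, adjusted p = 0.00965), beside 1243 higher and 1292 lower over all genes. Same-numbered libraries correlated at 0.217, 0.0921, 0.0481 and 0.113 in their deviations, all positive. Pairs of different number lay between -0.156 and 0.109, and Pdpk1 KO 2 correlated better with WT 3 (0.109) than with WT 2. Whether same-numbered libraries share more than a number was not tested, and the reported fit has no replicate term. Over all genes the calls were 611 higher and 700 lower as reported, 205 and 274 with this covariate, 161 and 276 without these 3 libraries, 360 and 1054 scaled to all reads, 364 and 1067 scaled to reads without the mitochondrial genes, 385 and 575 without Pdpk1 KO 3, and 390 and 485 without WT 4. Called genes ranged from 0 to 3 among assembly factors, 0 to 2 among carriers, 0 to 4 among biogenesis genes and 0 to 5 among TCA cycle genes. The cause of these differences was not tested. Genes with few reads, such as Cox7a1 and the low mitochondrial genes, have intervals too wide to show a change of the size seen in Cox7a2l.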
